A study of Homo sapiens with 51 samples.

Results

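The last step of a neural induction course was followed in both mutant lines of human H1 embryonic stem cells, an established cell line: day 5 of culture in SMADi neural induction medium against day 4. The 6 libraries were taken by their labels, out of 51 in the series. Day 5 holds 3 libraries (KO a, KO b and DATG a) and day 4 holds 3 (KO b, DATG a and DATG b). KO and DATG (written ΔATG in the series' design) are edited lines, and WT cells under the same medium, with 2 libraries at day 5 and 2 at day 4, served as the comparison. Which gene was edited is not stated in the labels, nor whether a line is 1 clone or several. All of these cells were seeded with a ROCK inhibitor and kept in the same medium with daily changes, and the labels call the product neuroectoderm or neural progenitors. The measurement was ATAC-seq, in which a transposase inserts adapters into open DNA, so that the count over a region reflects how accessible its chromatin is. In bulk libraries, fewer cells of a type and less accessibility per cell cannot be told apart.

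Neural induction kits of this kind block SMAD signalling, through which BMP and Nodal/Activin ligands hold pluripotent cells away from a neural fate. Cells then lose the pluripotency network and become a neural epithelium that carries SOX1, PAX6 and related factors. In such an epithelium Notch signalling keeps progenitors from becoming neurons: a ligand such as DLL1 or JAG1 on one cell binds a NOTCH receptor on its neighbour, the receptor is cut, and the freed receptor domain joins the DNA-binding protein RBPJ and switches on repressors of the HES and HEY families. RBPJ binds DNA with the core TGGGAA.

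Promoters of 5 genes of neural progenitors and Notch signalling are shown, chosen after their values were seen because the results below refer to them. They belong to HES5 and HES4, repressors downstream of Notch, to RBPJ itself, to PAX6, and to HESX1, an anterior neural repressor whose promoter lost accessibility. The first 4 gained accessibility at the windows printed. For PAX6 this window is at an internal start, and a region at another PAX6 promoter did not pass the test. The 250 bases before each start are printed from RefSeq (GRCh38.p14), read 5′ to 3′ along the gene, with capitals for matches to the searched motifs. Of 13 motifs searched on either strand, those that match here are the RBPJ core TGGGAA, the SOX site ACAATNG, the homeodomain core TAATTA, the CTCF core AGGGGGC, and AGATAA, which is bound by GATA factors. A match is a description of the letters and not a measured binding site.
HES5, chr1:2530264-2530513, minus strand, with 2 RBPJ cores and 1 SOX match: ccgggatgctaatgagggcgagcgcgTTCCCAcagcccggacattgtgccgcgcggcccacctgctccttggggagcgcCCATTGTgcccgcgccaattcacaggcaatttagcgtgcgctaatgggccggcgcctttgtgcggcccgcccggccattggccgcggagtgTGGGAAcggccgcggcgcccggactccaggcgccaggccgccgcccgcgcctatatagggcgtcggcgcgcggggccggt
HES4, chr1:1000098-1000347, minus strand, with 1 RBPJ core and 1 SOX match: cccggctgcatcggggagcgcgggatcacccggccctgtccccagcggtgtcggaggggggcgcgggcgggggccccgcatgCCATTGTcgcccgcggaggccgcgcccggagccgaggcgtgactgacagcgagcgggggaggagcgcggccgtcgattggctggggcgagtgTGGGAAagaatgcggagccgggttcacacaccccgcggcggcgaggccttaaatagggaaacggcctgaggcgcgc
RBPJ, chr4:26319496-26319745, plus strand, with 2 RBPJ cores: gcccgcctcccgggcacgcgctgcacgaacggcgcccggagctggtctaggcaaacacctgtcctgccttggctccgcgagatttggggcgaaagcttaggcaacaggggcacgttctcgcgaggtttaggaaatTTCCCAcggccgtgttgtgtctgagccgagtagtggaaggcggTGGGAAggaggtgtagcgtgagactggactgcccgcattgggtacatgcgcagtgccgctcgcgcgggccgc
PAX6, chr11:31806002-31806251, minus strand, at an internal start of the gene, with no match to the motifs searched: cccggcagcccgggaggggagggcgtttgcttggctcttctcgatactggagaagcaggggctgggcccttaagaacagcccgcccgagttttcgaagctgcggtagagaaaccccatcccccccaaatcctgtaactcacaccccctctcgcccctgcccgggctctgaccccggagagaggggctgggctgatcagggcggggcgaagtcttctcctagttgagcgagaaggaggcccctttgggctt
HESX1, chr3:57199979-57200228, minus strand, with 2 homeodomain cores, 1 GATA and 1 CTCF match: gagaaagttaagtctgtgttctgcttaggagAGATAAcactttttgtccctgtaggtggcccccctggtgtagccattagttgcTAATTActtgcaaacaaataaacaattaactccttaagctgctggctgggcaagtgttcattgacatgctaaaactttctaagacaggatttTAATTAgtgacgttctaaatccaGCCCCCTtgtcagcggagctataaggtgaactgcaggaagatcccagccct

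The 6 mutant libraries held 15451875, 17499435 and 23252871 counts in regions at day 5 (KO a, KO b, DATG a) and 15082248, 14782273 and 16585276 at day 4 (KO b, DATG a, DATG b), and the WT day 5 a library was the shallowest of those compared, with 7086918. Each line was present on both days, but KO at day 4 and DATG at day 5 are 1 library each, so their spread was taken from the other groups. The labels do not say that replicates were separate cultures, so that the p-values measure the spread between these libraries, which may be technical. Regions close to gene ends separated both lines on both days: a region 120 bases from an end of ZNF585A, a zinc finger gene, held 0 and 0 counts in KO and 262 in DATG at day 5, and 0 in KO with 103 and 105 in DATG at day 4. A region 86 bases from an end of CHCHD2, a mitochondrial protein gene, held 31 and 49 counts in KO and 1 in DATG at day 5, and 46 in KO with 1 and 2 in DATG at day 4. The 6 libraries thus fell by line as labelled. The library labelled KO day 1 b was like DATG at these regions (106 counts near ZNF585A, 0 near CHCHD2); it enters here only through the shared spread and the day 1 levels, and without it 21794 regions were called in place of 24288.

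Between day 4 and day 5, 24288 of 162313 tested regions changed in the mutant lines (15% of those tested; edgeR's quasi-likelihood test, Benjamini-Hochberg adjusted p under 0.05, with the KO and DATG changes weighted equally). Of these, 13079 regions rose (8.06%) and 11209 fell (6.91%). Losses were more often large: 6145 of the regions that fell and 3378 of those that rose changed over 2-fold. The regions that fell also had fewer counts, with a median log2 level of 1.82 against 2.61 for those that rose (counts scaled to a common library size). The part of this level in the excess of large losses was not tested. Over genes, taken as the sum of counts over regions lying closest to that gene and no more than 50 kb from its end, 6359 of 31495 changed (20.2%), 2589 upward (8.22%) and 3770 downward (12%). The region count was 5946 without the DATG day 5 library, 6738 without the KO day 4 library, 14894 without DATG day 4 a and 11568 with DESeq2, and the gene count 2030, 1546, 4000 and 3962 in the same order. Without the DATG day 5 library DATG drops out of the comparison and the count is that of KO alone, and without the KO day 4 library it is that of DATG alone. When libraries were scaled by total counts alone, 7161 regions rose and 16021 fell, so the balance of the directions depends on the scaling. Of the 153 named regions and genes, 60 lost their call without KO day 4 b and 56 without DATG day 5 a, each the only library of its line on that day, so that such a lost call, here and below, is that of the other line tested alone.

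The strongest gain was a region inside CLYBL (chr13:99860859-99861059, GRCh38), which encodes a mitochondrial lyase. It had 25 and 25.5 counts scaled to a common library size (CPM) in KO and 20.5 in DATG at day 5, against 3.37 in KO and 2.02 and 2.12 in DATG at day 4. All 3 day 5 libraries stood far above all 3 day 4 libraries, and the change was 3.10 ± 0.20 (log2, SE; adjusted p = 2.81e-14, edgeR). In WT the same region had 2.50 and 3.84 CPM at day 5 and 0.69 and 0.62 at day 4, so that it rose there too, from a lower level on both days. A region inside RNF220, a ubiquitin ligase gene, had 32.6, 33.8 and 29.2 CPM at day 5 and 9.29, 8.00 and 8.17 at day 4 in the mutant lines (KO libraries before DATG), a change of 1.84 ± 0.16. SOX8, a SOXE transcription factor gene, had a region 32610 bp from its nearer end that rose by 1.56 ± 0.16 in the mutant lines and by 2.35 in WT. The PANK4 promoter (chr1:2526781-2526981), of a pantothenate kinase family gene, had 27.6, 38.3 and 30.6 CPM at day 5 and 10.3, 10.3 and 8.41 at day 4. It changed by 1.70 ± 0.16 in the mutant lines and by 0.21 in WT, and the changes differed (adjusted p = 0.000784, edgeR). PANK4 lies beside HES5, whose promoter region starts at 2530311 on the same chromosome.

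Of the 12 regions named for the smallest p among those that rose, 1 overlapped the promoter of its nearest coding gene, that of PANK4. The nearest end of a protein-coding gene was over 10 kb away for 9 of them. The other members of this set lay near GPT2 (2.31), FIZ1 (1.88), SLC7A8 (2.22), ILDR2 (1.59, at the promoter window of LOC124904449), ARHGAP31 (2.06), TMC5 (2.09), LOC124905139 (1.64) and SERP2 (1.54). All 12 rose in KO and in DATG, as the rule for naming them asked.

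Among the losses, a region 8716 bp from FBN2, which encodes an extracellular microfibril protein, nearly closed in the mutant lines (chr5:128546861-128547061). It had 0.57 and 0.26 CPM in KO and 0.51 in DATG at day 5, against 4.44 in KO and 4.91 and 5.63 in DATG at day 4. WT kept 11.5 and 9.66 CPM at day 5 and had 14.5 and 15.3 at day 4. The mutant change was -3.39 ± 0.30 and the WT change -0.52, a difference of -2.87 ± 0.37 (adjusted p = 1.36e-05, edgeR). A region inside TGIF2, a homeodomain corepressor of SMAD signalling, had 1.07, 1.09 and 2.09 CPM at day 5 and 5.99, 7.46 and 6.60 at day 4 in the mutant lines, and 18.5 and 16.1 at day 5 and 22.7 and 24.5 at day 4 in WT. Mutant accessibility there stood below WT on both days and fell by 2.10 on the log2 scale. Other regions named among the losses lay near VPS13C (-2.27), JADE2 (-1.72), CKS2 (-2.36), HK2 (-1.96), SLC38A3 (-2.24), LARP7 (-2.29), GLRX5 (-2.52), QPRT (-1.74) and THSD4 (-1.46). None of the 12 overlapped a promoter window. All 24 named regions kept their calls in the alternatives run.

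The regions that rose stood higher at day 4 than at day 1 as well. Their median level was 3.35 CPM in KO and 3.07 in DATG at day 1, 6.40 and 6.13 at day 4, and 11 and 10.5 at day 5. WT stood at 3.27, 4.37 and 5.46 CPM on the same days. The regions that fell had 3.42 CPM in KO and 3.49 in DATG at day 1, 3.43 and 3.48 at day 4, and 1.55 and 1.72 at day 5, with 3.35, 4.65 and 3.96 in WT. The median mutant level of these regions was thus about the same at days 1 and 4 and lower at day 5. The day 5 and day 4 levels are those that chose the regions and are given as a description.

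**Figure D1:**
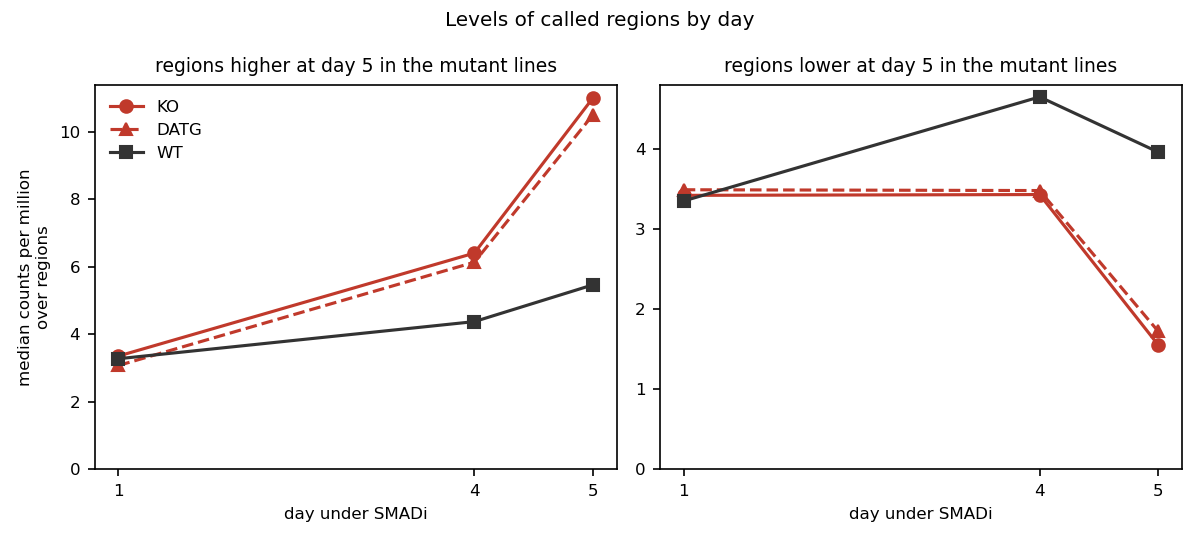
Median CPM (vertical axis) of the 13079 regions higher at day 5 (left) and the 11209 regions lower at day 5 (right) in the mutant lines, at days 1, 4 and 5 (horizontal axis), for KO, DATG and WT group means. In the mutant lines the left set climbs to 11 (KO) and 10.5 (DATG) at day 5 against 5.46 in WT, and the right set drops to 1.55 and 1.72 only after day 4.

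KO and DATG took the step in the same direction. Tested alone, KO had 6207 changed regions (3.82%) and DATG 6811 (4.2%). The KO count was 2735 without KO day 5 a and 2548 without KO day 5 b, and the DATG count 1954 without DATG day 4 a and 2109 without DATG day 4 b. Without WT day 5 a or b the counts were 11641 and 11646 in KO and 11603 and 11600 in DATG. The 2771 regions called in both all moved the same way, which is 44.6% of the KO calls and 40.7% of the DATG calls. Of the KO calls, 98.2% had the same sign in DATG, and of the DATG calls 97.5% had the same sign in KO, against 71.3% of all tested regions. Across all 162313 regions the changes of KO and DATG had a Pearson correlation of 0.476, a description over regions that share libraries and depth. In the test of the difference itself, KO minus DATG, 0 regions passed with edgeR, with 4891 at an unadjusted p under 0.05 and a lowest adjusted p of 0.17. DESeq2 also gave 0, with 1949 at an unadjusted p under 0.05. With 1 library on one side of each line's step, this does not show that the lines act alike.

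**Figure D2:**
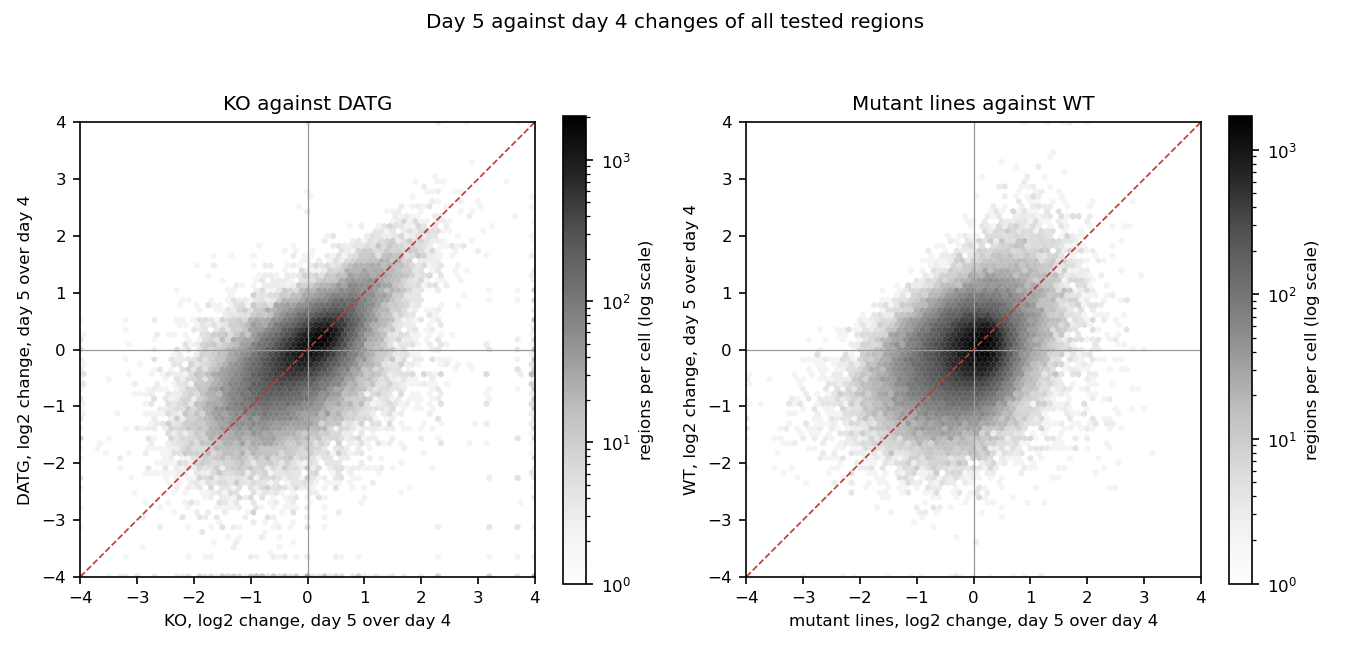
Log2 changes of day 5 over day 4 for all 162313 tested regions, KO (horizontal) against DATG (vertical) on the left and the mutant lines (horizontal) against WT (vertical) on the right; shading is the number of regions per cell on a log scale, the dashed line is equality, and values beyond 4 are drawn at the edge. The left cloud runs along the diagonal, with 71.3% of regions of the same sign, and the right cloud is rounder.

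Gains lay near gene ends more often than losses did. Of the regions that rose, 38.7% lay within 1 kb of a gene end, against 6.63% of those that fell and 27.6% of all tested. With offsets fitted by level (loess) these shares were 19.9% of gains and 8.25% of losses, and with total-count scaling 26.6% and 7.92%. Gains thus stood above losses under each scaling, but above the share of all regions only in the scaling used here. Beyond 50 kb lay 12.6% of the gains, 23.3% of the losses and 13.4% of all tested regions, with 18.7% of gains and 21.6% of losses under loess offsets and 16.7% and 22.1% under total counts. Of the 17768 regions that overlapped a RefSeq promoter window (250 bases before to 50 after a start), 3122 rose (17.6%) and 184 fell (1.04%). Their median change was 0.24 in the mutant lines and 0.08 in WT. With loess offsets, 1086 promoter regions rose and 219 fell, and with total-count scaling 1037 rose and 318 fell. The share of all counts that fell in promoter regions moved with the day: 27.9%, 27.4% and 26.5% at day 5 (KO a, KO b, DATG a) and 25%, 23.9% and 25.1% at day 4 (KO b, DATG a, DATG b). The tenth of regions with the most counts held 38.2%, 39.3% and 37.1% at day 5 and 36.2%, 34.7% and 35.7% at day 4. The part of these library-wide shifts in the promoter gains was not tested. Chromosome 19 had a median change of 0.13, with 11.3% of its 7043 regions higher and 2.95% lower. These shares were not recounted under the other scalings.

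The promoters that rose were richer in GC than those that fell. The 3896 promoter windows that overlap a region that rose had a median GC content of 69.3% and 31 CpG pairs in their 300 bases. The 196 windows over a region that fell had 54.0% and 5, and the 18859 windows with a tested region had 66.0% and 26. The ETS core CCGGAAG stood in 21.5% of windows that rose, 3.57% of those that fell, 16.1% of those with a tested region and 10.2% of all 34943 windows. The CTCF core AGGGGGC stood in 23.4%, 9.18%, 20.8% and 14.3% of the same sets. Motifs of neural and homeodomain factors went the other way: the SOX site ACAATNG stood in 4.31% of windows that rose, 10.2% that fell, 4.51% with a tested region and 6.99% of all. TAATTA stood in 1.26%, 7.14%, 1.97% and 4.85% and the OTX site GGATTA in 4.08%, 12.2%, 4.4% and 6.36%. The RBPJ core TGGGAA was no more frequent where promoters rose, at 19.9% against 29.1% where they fell, 21.7% with a tested region and 24.0% of all. The other motifs searched were also more frequent where promoters fell than where they rose: the octamer part ATGCAAA (6.63% of windows that fell, 2.03% that rose), the E-boxes CAGCTG (27.0%, 16.1%) and CAGATG (12.8%, 6.96%), the AP-1 site TGANTCA (10.2%, 3.34%), the TEAD site GGAATG (20.9%, 9.73%), the NFI site TTGGCA (18.4%, 7.73%) and AGATAA (10.2%, 3.29%). The sets also differ in base composition, and the part of composition in these shares was not tested.

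The Notch pathway was the gene list with the largest share called in 1 direction. Of its 20 measured genes 9 rose and none fell, against 8.22% higher and 12% lower over all genes, and its median change was 0.20 against -0.01 over all genes. In WT 0 of the 20 rose and 1 fell, against 4.63% and 5% of all genes (9.64% in all), with a median of 0.02. The mutant change was above that of WT at 4 of the 20 and below it at none, against 2.07% and 3.88% of all genes (5.94% in all). The count in the mutant lines was also 9 and 0 with loess offsets, with total-count scaling and with DESeq2. The 9 were the receptors NOTCH1 and NOTCH3, the ligands DLL1 and JAG1, the fringe enzyme LFNG, which modifies the receptors, the coactivator MAML3, and the target repressors HES1, HES4 and HEYL. At promoter level, 10 of 21 regions of the list rose (47.6%) and none fell, against 17.6% and 1.04% of all promoter regions. With loess offsets 6 rose and with total counts 5 rose. The lists were drawn with earlier results of these data known. HES5, which rose, and the non-canonical ligand DLK1, which fell, were kept in other lists.

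Within the Notch list, which leaves out HES5, HES4 had the largest change. Its gene-linked accessibility was 145.4 and 134.6 CPM in KO and 136.7 in DATG at day 5, against 85.9 in KO and 91.4 and 91.0 in DATG at day 4. The groups did not overlap, and the change was 0.64 ± 0.06 (adjusted p = 2.58e-08, edgeR). WT had 66.1 and 76.2 CPM at day 5 and 70.0 and 64.8 at day 4, and the mutant change exceeded that of WT by 0.55 ± 0.10 (adjusted p = 0.0015, edgeR). Of 12 HES4 regions 6 rose, including both that overlap its promoter. Over all regions 8.06% rose and 6.91% fell, also the background for the region counts of the genes below. The upstream promoter region (chr1:1000302-1000502) overlaps only the start of the printed sequence and none of its marked matches. It had 24.1, 20.3 and 19.5 CPM at day 5 and 10.2, 9.54 and 10.7 at day 4, a change of 1.03 ± 0.15. The other promoter region (chr1:1000086-1000286), which holds the marked matches, had 37.3, 37.3 and 31.4 CPM at day 5 and 19.9, 20.5 and 21.1 at day 4 (0.75 ± 0.12). The region 1160 bp upstream changed most, by 1.74 ± 0.27, with -0.13 in WT.

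DLL1, the main Notch ligand of neural progenitors, had 238.3 and 231.2 CPM in KO and 247.9 in DATG at day 5, against 182.2 in KO and 182.9 and 190.7 in DATG at day 4. It changed by 0.39 ± 0.05 in the mutant lines (adjusted p = 1.76e-06, edgeR) and by 0.07 in WT, and the changes differed (0.32 ± 0.08, adjusted p = 0.0121, edgeR). Of 19 regions at DLL1 11 rose and 1 fell. That 1, 23095 bp upstream (chr6:170314073-170314273), changed by -1.77 ± 0.19, the largest change in size of any region at the gene. JAG1, another ligand, had 252.0, 253.5 and 252.7 CPM at day 5 and 205.2, 203.8 and 206.9 at day 4, a change of 0.30 ± 0.05. The JAG1 call was lost with gene ends within 1 kb and within 10 kb. The ligands DLL3 (0.08), DLL4 (0.04) and JAG2 (0.11) did not pass the test.

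Among the receptors, NOTCH1 had 81.4 and 81.3 CPM in KO and 77.8 in DATG at day 5, against 60.5 in KO and 50.6 and 58.5 in DATG at day 4, a change of 0.47 ± 0.08 (adjusted p = 9.21e-05, edgeR). Of its 9 regions 5 rose, among them its promoter region (0.64 ± 0.15). The gene-linked call of NOTCH1 was lost with gene ends within 1 kb. NOTCH3 changed by 0.27 ± 0.06 in the mutant lines and by -0.17 in WT, and NOTCH2 by -0.12 ± 0.13, which did not pass. RBPJ rose at the promoter printed above: its region chr4:26319575-26319775 had 28.0, 32.1 and 26.1 CPM at day 5 and 17.4, 15.9 and 16.2 at day 4 (0.74 ± 0.12, adjusted p = 3e-05, edgeR). That region is assigned to another gene end, and the 2 other regions linked to RBPJ, at about 1 CPM, gave a gene-linked change of 0.22 that did not pass.

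HES5, the Notch target repressor that marks neural progenitors, was kept in the neural progenitor list. It had 92.8 and 104.1 CPM in KO and 99.3 in DATG at day 5, against 58.2 in KO and 55.7 and 58.1 in DATG at day 4. The day 5 libraries all stood above the day 4 libraries, and the change was 0.78 ± 0.07 (adjusted p = 1.24e-08, edgeR). WT HES5 had 54.2 and 49.4 CPM at day 5 and 39.6 and 38.2 at day 4 and rose by 0.40; the difference between the changes missed the threshold (adjusted p = 0.0574, edgeR). Of 9 HES5 regions 5 rose and 2 fell. The promoter region over the printed sequence had 46.9, 55 and 45.1 CPM at day 5 and 20.6, 20.2 and 21.8 at day 4, and changed by 1.20 ± 0.13 in the mutant lines and by 1.21 in WT. A region 2755 bp upstream changed by 2.47 ± 0.25 and one past the end of the gene by 2.25 ± 0.26, with 0.85 and -0.48 in WT, neither of which passed there. The 2 that fell, of -2.06 ± 0.24 and -1.52 ± 0.25, lie inside the gene.

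**Figure D3:**
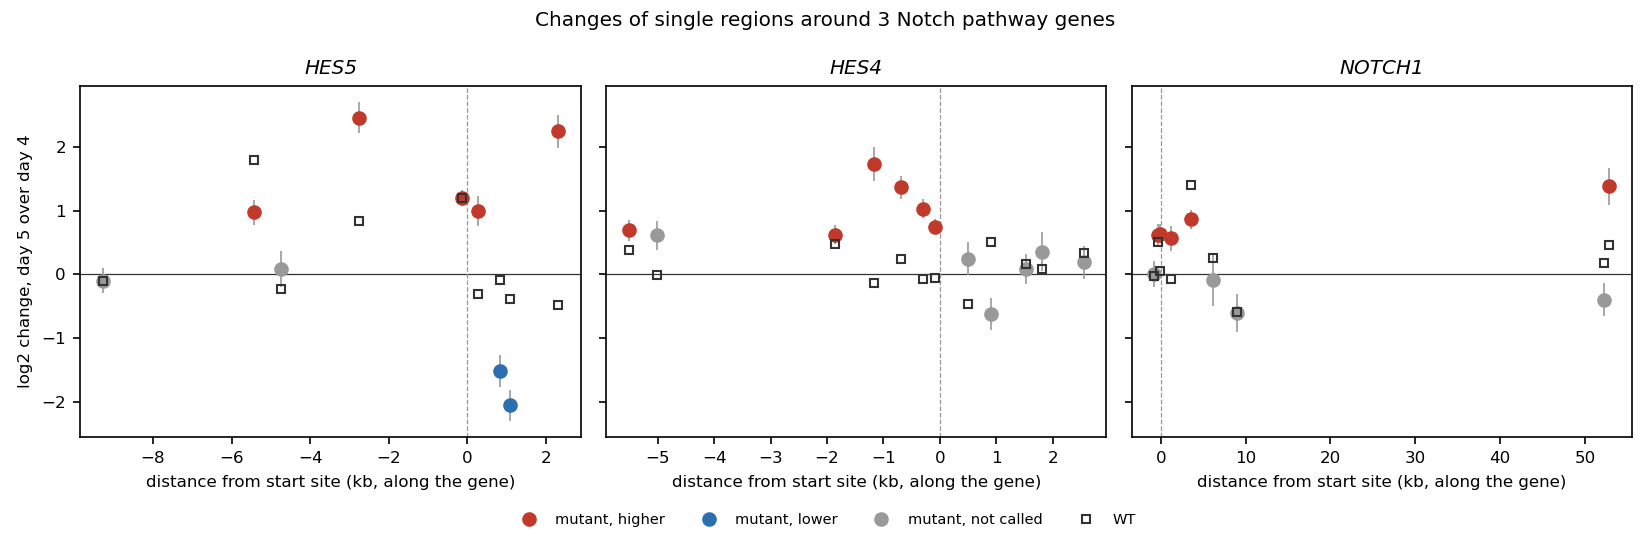
Log2 change of day 5 over day 4 (vertical axis) of each region linked to HES5, HES4 and NOTCH1, by distance from the start site along the gene in kb (horizontal axis); filled circles are the mutant lines with SE bars, coloured by call, and open squares are WT. At HES4 6 regions rise in the mutant lines, and at HES5 gains before and after the gene flank 2 losses of -1.52 and -2.06.

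In the neural progenitor list, which holds HES5, 8 of 25 measured genes rose and 1 fell, against 8.22% higher and 12% lower over all genes, with a median change of 0.10 in the mutant lines and -0.05 in WT. The counts were 6 higher and 2 lower with loess offsets, 7 and 2 with total-count scaling, and 6 and 0 with DESeq2. ZBTB16, a zinc finger repressor of neural rosettes, had 242.0, 253.8 and 242.0 CPM at day 5 and 194.8, 181.9 and 178.6 at day 4. It changed by 0.39 ± 0.05 in the mutant lines and by 0.52 in WT, which had 130.0 and 144.8 CPM at day 5 and 94.7 and 98.4 at day 4. SOX3, a neural SOXB1 factor (0.29 ± 0.08), CDH2, the cadherin of neural epithelium (0.26 ± 0.07), NES, an intermediate filament (0.25 ± 0.05), MSI1, an RNA-binding protein (0.22 ± 0.06), LMO3 (0.30 ± 0.10) and ZIC5 (0.23 ± 0.07) also rose. The call of SOX3 was lost without KO day 4 b, and that of LMO3 without any 1 of DATG day 5 a, DATG day 4 b, KO day 5 a, KO day 5 b or KO day 4 b. TFAP2B, a factor of neural crest and surface ectoderm that also stands in the non-neural list, fell by 0.24. The calls of CDH2, NES, MSI1, ZIC5 and TFAP2B were not followed singly in the alternatives. Of 27 promoter regions of the list 11 rose and none fell, against 17.6% and 1.04% of all promoter regions, a count that was also 11 and 0 with loess offsets and with total counts.

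Of 20 measured genes of the anterior neural plate and forebrain 4 rose and 3 fell (8.22% and 12% over all genes), with a median of -0.03. OTX1 and LHX5, homeobox genes of the forebrain, changed by 0.32 ± 0.06 each, and NR2F2 (0.29 ± 0.08) and EMX2 (0.23 ± 0.06), cortical patterning factors, rose too. HESX1 had 28.3, 26.5 and 32.2 CPM at day 5 and 37.9, 39.5 and 40.3 at day 4, a change of -0.39 ± 0.09 against 0.09 in WT (difference adjusted p = 0.038, edgeR). Its promoter, printed above, had 9.37, 8.56 and 10.9 CPM at day 5 and 18.4, 18.9 and 20.0 at day 4, while WT had 31.5 and 25.6 CPM at day 5 and 24.9 and 29.3 at day 4. DLK1, a non-canonical Notch ligand kept in this list, changed by -0.38 ± 0.09 in the mutant lines and by 0.46 in WT, with opposite calls. OTX1, HESX1 and DLK1 lost their mutant calls without KO day 4 b, and with gene ends within 1 kb the DLK1 change was 0.33. OTX2, the forebrain and midbrain homeobox gene, had 71.1, 58 and 68.7 CPM at day 5 and 56.0, 60.4 and 56.7 at day 4, so the groups overlapped (0.22 ± 0.08, adjusted p = 0.0651, edgeR). WT OTX2 had 37.4 and 44.2 CPM at day 5 and 68.1 and 60.5 at day 4 and fell by 0.64, and the changes differed by 0.85 ± 0.14 (adjusted p = 0.000335, edgeR).

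The eye-field and neural fate factors PAX6 (-0.02), LHX2 (-0.04), RAX (-0.04), SIX6 (-0.05) and FEZF2 (-0.04) did not pass the test. SIX3 changed by -0.16 ± 0.05 and lost its call in 12 of the alternatives, and SOX1 by 0.14 ± 0.05 (adjusted p = 0.0527, edgeR), with 4 of its 31 regions higher. At PAX6 2 of 9 linked regions rose. Over all regions 8.06% rose, and the counts at SOX1 and PAX6 are small to set against that share. The linked region at another PAX6 promoter (chr11:31817962-31818162) did not pass (0.12 ± 0.16, adjusted p = 0.678, edgeR). The region over the internal PAX6 promoter, printed above (chr11:31805958-31806158), is assigned to another gene end and is not part of the gene-linked value. That region had 18.6 and 15.7 CPM in KO and 12.9 in DATG at day 5, against 7.68 in KO and 7.79 and 7.08 in DATG at day 4. It changed by 0.98 ± 0.16 in the mutant lines and by -0.11 in WT (difference adjusted p = 0.0151, edgeR).

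**Figure D4:**
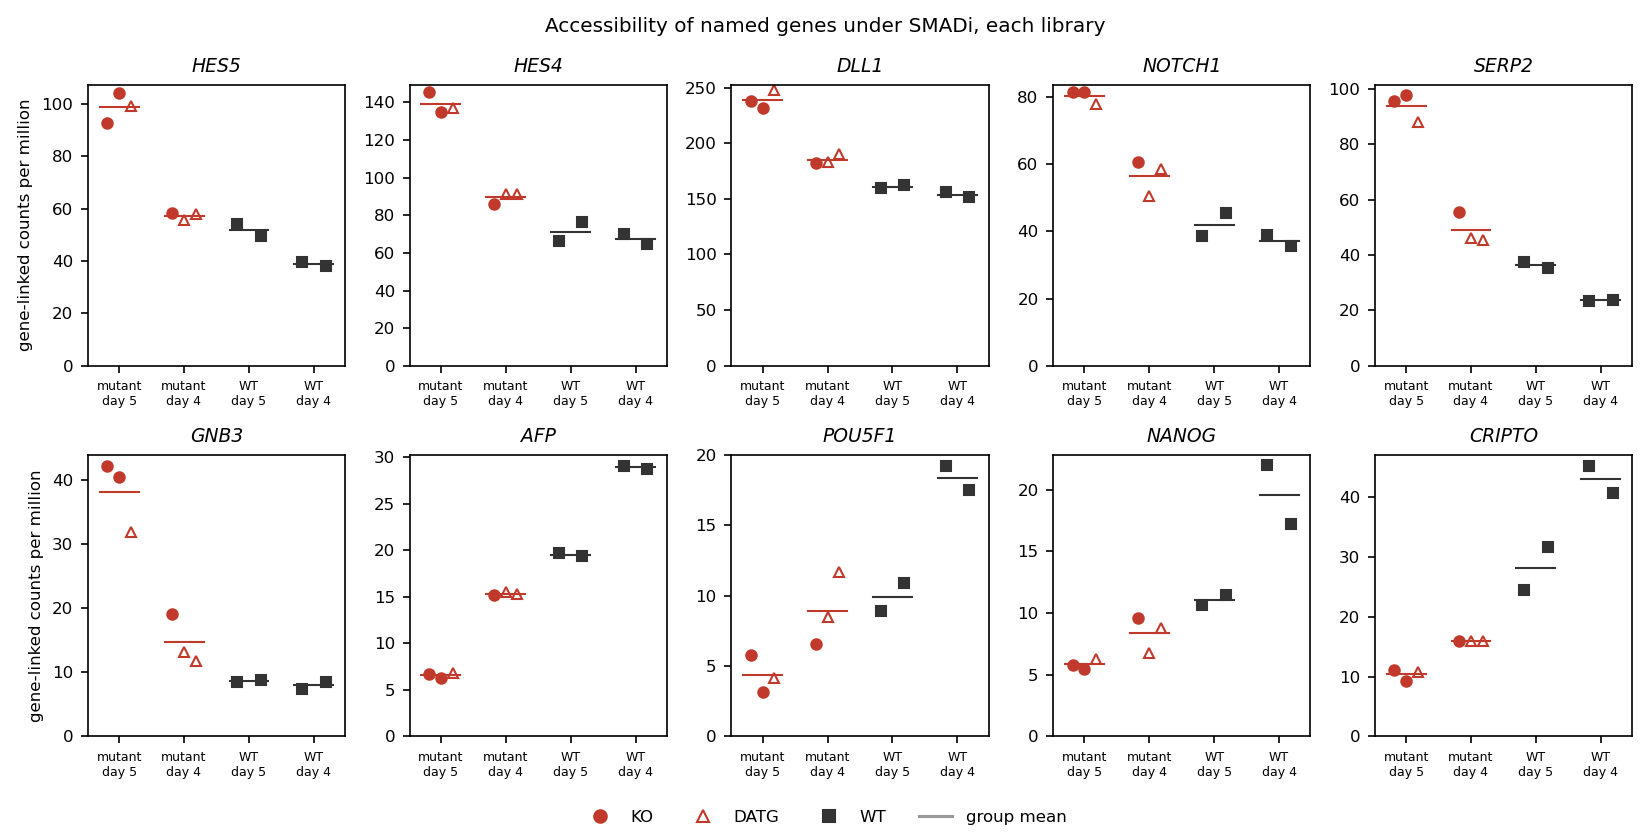
Gene-linked CPM (vertical axis, from 0) of 10 named genes in each library, for the mutant lines at day 5 and day 4 and WT at day 5 and day 4; filled circles are KO, open triangles DATG, squares WT and lines group means. HES5, HES4, DLL1, NOTCH1, SERP2 and GNB3 stand higher in all 3 mutant day 5 libraries than in all 3 at day 4, and AFP, POU5F1, NANOG and CRIPTO stand lower.

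Of 25 measured pluripotency genes 7 fell and 2 rose in the mutant lines, against 12% lower and 8.22% higher over all genes, and 10 fell and 0 rose in WT, against 5% and 4.63%. POU5F1, the core pluripotency factor OCT4, had 5.80 and 3.17 CPM in KO and 4.14 in DATG at day 5, against 6.57 in KO and 8.45 and 11.7 in DATG at day 4. Its change of -0.93 ± 0.20 (adjusted p = 0.00124, edgeR) lost its call without the DATG day 5 library. NANOG had 5.80, 5.44 and 6.30 CPM at day 5 and 9.60, 6.79 and 8.81 at day 4 (-0.54 ± 0.16), a call lost with DESeq2, with loess offsets and without DATG day 4 b or KO day 4 b. WT levels of POU5F1 were 8.91 and 10.9 CPM at day 5 and 19.2 and 17.5 at day 4, so that WT at day 5 stood about where the mutant lines were at day 4. CRIPTO, the Nodal coreceptor, had 11.2, 9.26 and 10.8 CPM at day 5 and 15.9, 16.0 and 16.0 at day 4 (-0.60 ± 0.12). CD9 (-0.36 ± 0.07), L1TD1 (-0.32 ± 0.08), PRDM14 (-0.24 ± 0.06) and ZFP42 (-0.23 ± 0.08) also fell, while LIN28B (0.55 ± 0.14) and KLF4 (0.20 ± 0.07) rose. LIN28B lost its call without DATG day 5 a or without KO day 4 b. With loess offsets, total-count scaling or DESeq2 only 1 gene of the list rose, LIN28B, so that KLF4 lost its call. The calls of CD9, L1TD1, PRDM14, ZFP42 and KLF4 were not followed singly in the alternatives.

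Of 15 genes under Nodal/Activin control 5 fell and 1 rose in the mutant lines, and 4 fell and 0 rose in WT. The shares over all genes, 12% lower and 8.22% higher in the mutant lines, are also the background for the BMP, WNT and FGF lists. LEFTY1, a Nodal antagonist that Nodal itself induces, changed by -0.61 ± 0.13, CER1, a secreted antagonist, by -0.70 ± 0.17, FOXH1, the SMAD cofactor, by -0.34 ± 0.08 and PMEPA1, a feedback inhibitor, by -0.35 ± 0.12, with CRIPTO the fifth. SKIL, a SMAD corepressor, rose by 0.34 ± 0.08. BMP and SMAD feedback genes did not move as 1 group: ID3 (0.23 ± 0.07) and GREM1 (0.41 ± 0.13) rose, BMP4 (-0.27 ± 0.10) and DLX6 (-0.23 ± 0.06) were among those that fell, and ID1 (0.16 ± 0.08) did not pass, out of 20. Of 21 WNT genes 5 fell and 0 rose, among them WNT8A (-0.36 ± 0.10) and RNF43 (-0.33 ± 0.11), though the list's median was 0.05. Of 20 FGF and ERK feedback genes 3 rose (ETV5, FGFR3 and SPRY1) and SPRY4 fell by 0.28. FGF8 (-0.08 ± 0.09) did not pass. The calls of LEFTY1, CER1 and SPRY4 were lost without DATG day 5 a. Those of PMEPA1, GREM1, BMP4, DLX6, WNT8A, RNF43, ETV5, FGFR3 and SPRY1 were lost without that library and also without KO day 4 b, and SPRY1 was at -0.12 with gene ends within 1 kb. FOXH1, SKIL and ID3 were not followed singly. With loess offsets 1 gene of the BMP list rose, GREM1, so that ID3 lost its call there.

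Genes of other fates moved in both directions, and their counts are read against the same 12% lower and 8.22% higher over all genes. AFP, an albumin relative made by fetal liver and yolk sac, had 6.74 and 6.28 CPM in KO and 6.78 in DATG at day 5, against 15.2 in KO and 15.5 and 15.3 in DATG at day 4, a change of -1.20 ± 0.13 (adjusted p = 3.09e-07, edgeR). All 4 of its regions fell, and WT AFP, at 19.7 and 19.3 CPM at day 5 and 29.1 and 28.7 at day 4, fell less (-0.57; difference adjusted p = 0.0474, edgeR). TTR, a thyroid hormone carrier in the same endoderm list and also a choroid plexus gene, went the other way on a single region, with 4.06, 4.47 and 3.66 CPM at day 5 and 1.03, 0.60 and 0.53 at day 4 (2.35 ± 0.33). In that list 3 of 13 rose and 4 fell, with SOX17, an endoderm factor, at -0.29 ± 0.10. Of 20 non-neural ectoderm genes 7 fell and 2 rose: OVOL1 (-0.81 ± 0.17), TP63 (-0.63 ± 0.19), KRT7 (-0.45 ± 0.09) and the epithelial cadherin CDH1 (-0.34 ± 0.07) fell, and GRHL3 (0.64 ± 0.09) and KRT19 (0.22 ± 0.07) rose. KRT18 (0.07 ± 0.06) and GATA3 (-0.20 ± 0.13) did not pass. OVOL1, TP63 and SOX17 lost their calls without KO day 4 b, and TP63 and SOX17 also without DATG day 5 a. With loess offsets, total-count scaling or DESeq2 only 1 of the non-neural ectoderm genes rose, GRHL3, so that KRT19 lost its call. KRT19 and CDH1 were not followed singly in the alternatives.

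Of 20 roof plate, neural crest and placode genes 4 fell and none rose, namely ETS1 (-0.54 ± 0.13), GDF7 (-0.31 ± 0.06), FOXD3 (-0.25 ± 0.08) and SOX10 (-0.20 ± 0.07), with PAX3 at -0.03 ± 0.08. The share over all genes was 12% lower and 8.22% higher here too. Of 19 primitive streak and mesoderm genes 3 fell, KDR, LHX1 and GATA4, and TBXT missed the threshold (-0.61 ± 0.23, adjusted p = 0.0539, edgeR). Of 14 endothelial and blood genes 4 fell, PTPRC by 0.90, FLI1 by 0.42, PECAM1 by 0.41 and TAL1 by 0.28, and ETV2 rose by 0.17. In the mesenchyme list ACTA2 (-0.37 ± 0.09) and COL1A2 (-0.31 ± 0.10) fell out of 14. Of 17 floor plate and ventral genes LMX1B, OLIG1 and OLIG2 fell and PTCH1, the Hedgehog receptor and target, rose by 0.24. The calls of ETS1, GDF7, GATA4, FLI1 and PTCH1 were lost without KO day 4 b, and those of PTPRC and PECAM1 without DATG day 5 a. Those of FOXD3, SOX10, KDR, LHX1, TAL1, ACTA2, COL1A2, LMX1B, OLIG1 and OLIG2 were lost in both cases. ETS1 was at 0.04 with gene ends within 1 kb. With loess offsets, total-count scaling or DESeq2 0 genes of the endothelial and blood list rose, so that ETV2 lost its call there.

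Of 36 measured HOX genes 4 fell and 0 rose, close to the 12% of all genes that fell, with a list median of -0.24 in the mutant lines and -0.16 in WT, HOXD1 changing most among those called (-0.72 ± 0.16). In the midbrain, hindbrain and spinal cord list PAX2 fell by 0.21, with HOXB1 and HOXA3, out of 24, and EN1 (-0.11 ± 0.06) did not pass. In the retinoic acid list ALDH1A1, which makes retinoic acid, had 20.6, 18.2 and 15.9 CPM at day 5 and 9.23, 7.24 and 5.20 at day 4. It changed by 1.22 ± 0.17 in the mutant lines and by 1.41 in WT. CYP26A1, which breaks retinoic acid down, fell by 0.37, with RARG and DHRS3, out of 17. HOXD1 and HOXA3 lost their calls without DATG day 5 a, and HOXB1, RARG and DHRS3 without it and also without KO day 4 b, while PAX2, ALDH1A1 and CYP26A1 kept theirs with each library left out. DHRS3 was at 0.02 with gene ends within 1 kb.

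The neuronal lists had few calls, to be read against 8.22% higher and 12% lower over all genes. Of 26 neuronal differentiation genes SCRT2 rose by 0.19 and MYT1L (-0.61 ± 0.20) and ST18 (-0.25 ± 0.07) fell. Of 23 neurotransmitter receptor and channel genes 4 fell, SCN2A (-0.54 ± 0.11), CACNA1E (-0.51 ± 0.11), GRIN2A and GRIN2B. Of 30 axon guidance and adhesion genes CNTN4 and EPHA4 rose and SEMA3A and CDH10 fell. Immediate early genes ZFP36, ATF3 and JUNB rose, by 0.24, 0.23 and 0.17, out of 22. Of 17 p53 targets BBC3 and GADD45A rose by 0.21 each and CDKN1A fell by 1.06. Of 44 ribosomal protein genes RPL10A rose and RPS20 fell. At promoter level 12 of 40 ribosomal protein regions rose (30%), but 1 did with loess offsets and 0 with total counts, and of 38 axon guidance promoter regions 11 rose, with 2 and 3 under those scalings. Over all 17768 promoter regions 3122 rose (17.6%), with 1086 under loess offsets and 1037 under total counts. NFIB, a differentiation factor outside these lists, fell by 0.82 in the mutant lines and by 0.74 in WT. SCN2A, CACNA1E and ATF3 lost their calls without KO day 4 b, and SEMA3A without DATG day 5 a. The other genes named here except NFIB lost theirs without DATG day 5 a and also without KO day 4 b, and EPHA4 was at -0.01 with gene ends within 1 kb.

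**Figure D5:**
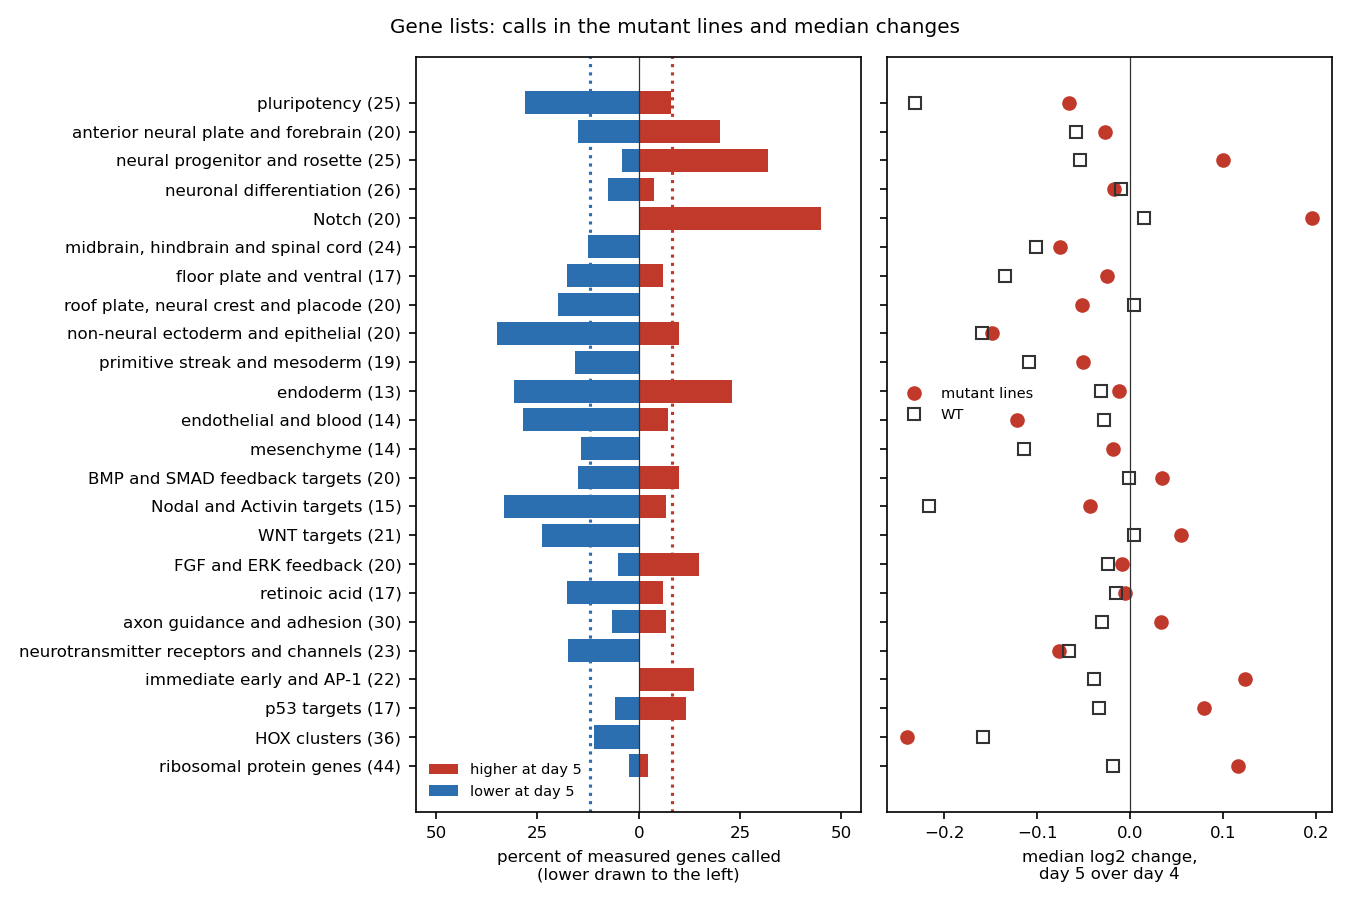
Left, percent of measured genes of each list (number in brackets) called higher (red, to the right) or lower (blue, to the left) at day 5 against day 4 in the mutant lines, with dotted lines at the share over all genes, 8.22% and 12%; right, median log2 change of each list in the mutant lines (filled circles) and WT (open squares). The Notch list, drawn with earlier results known and without HES5 and DLK1, has 9 of 20 called higher and none lower.

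Named by smallest p over all genes rather than by list, the genes that rose were led by SERP2, a protein of the endoplasmic reticulum membrane, and HES5. SERP2 had 95.7, 97.9 and 87.9 CPM at day 5 and 55.4, 46.3 and 45.4 at day 4 (0.87 ± 0.08), with 0.61 in WT. GNB3, a G protein beta subunit, had 42.1 and 40.5 CPM in KO and 31.9 in DATG at day 5, against 19.0 in KO and 13.1 and 11.7 in DATG at day 4 (1.24 ± 0.12). KO stood above DATG on both days. GNB3 changed by 0.12 in WT, at 8.44 and 8.78 CPM at day 5 and 7.40 and 8.50 at day 4, and the difference was 1.11 ± 0.22 (adjusted p = 0.00227, edgeR). ESM1, a secreted proteoglycan, had 9.49, 7.70 and 8.23 CPM at day 5 and 2.29, 3.77 and 3.0 at day 4 (1.59 ± 0.21). The others were HES4, FBXL14 (0.48), LRCH4 (0.73), CFD (0.64), LOC124902393 (0.98), DLL1, HNRNPM (0.62) and ZC3H12C (0.50, and -0.05 with gene ends within 1 kb). Those that fell were led by AFP and QPRT (-0.52), with KIF4B (-0.76), PROZ (-0.86), NFIB, DEFB114 (-1.0), LRRC55 (-0.68), ENPEP (-0.93), DGKI (-0.53), PDE4D (-0.90), MUC4 (-0.79) and RHBDL2 (-0.97). With gene ends within 1 kb, FBXL14, PROZ, ENPEP, DGKI and MUC4 lost their calls. Within 10 kb, ESM1, ZC3H12C, DEFB114, LRRC55 and DGKI lost theirs.

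The same day in WT was partly alike. WT changed at 12059 regions (7.43%), 6414 upward (3.95%) and 5645 downward (3.48%). The WT count was 3914 without WT day 4 a, 7668 without WT day 4 b, 7192 without WT day 5 a and 19008 without WT day 5 b. Of the 13079 regions that rose in the mutant lines 2076 also rose in WT (15.9%) and 57 fell, and 78.3% had a positive change in WT against 49.6% of all regions. Of the 11209 that fell, 1221 also fell in WT (10.9%) and 153 rose. The changes themselves differed between the mutant lines and WT at 4336 regions (2.67%): the mutant change was above that of WT at 1170 (0.721%) and below it at 3166 (1.95%). With 1 library left out, the total was 847 without WT day 4 a and 12543 without WT day 5 b, and 2051 to 2760 without DATG day 4 a, DATG day 4 b or KO day 5 a. It was 657 without KO day 4 b and 2023 without DATG day 5 a, where DATG alone and KO alone were set against WT.

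The levels behind the regions that differed are given as a description, since the day 4 and day 5 values chose them. Where the mutant change was below that of WT, the medians of the mutant lines stood above WT at day 4 and below it at day 5. Over those 3166 regions the median level in KO and DATG was 3.59 and 4.04 CPM at day 5 and 6.26 and 6.12 at day 4, and in WT 6.82 at day 5 and 4.18 at day 4. Of these, 1856 were called lower in the mutant lines and 1270 called higher in WT. A region inside ZBTB16, 32470 bp from its nearer end, had 34.1, 37.7 and 36.0 CPM at day 5 and 30.5, 28.2 and 27.4 at day 4 in the mutant lines, while WT had 25.3 and 24.6 at day 5 and 5.01 and 6.48 at day 4. Regions near WDR43, LIPC and SART3 had the same form, open in the mutant lines on both days and opening in WT at day 5. The set was not uniform: the FBN2 and TGIF2 regions described above belong to it and stood below WT on both days. Where the mutant change was above that of WT, the medians were 5.30 and 4.92 CPM at day 5 and 2.90 and 3.04 at day 4 in KO and DATG, and 2.78 at day 5 and 5.26 at day 4 in WT. The PTGFRN promoter, of a tetraspanin-associated membrane protein, had 19.5, 23.5 and 19.0 CPM at day 5 and 10.2, 8.67 and 10.5 at day 4 in the mutant lines, and 5.88 and 6.22 at day 5 and 8.39 and 10.0 at day 4 in WT.

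The cells' label was checked on markers of neuroectoderm and of other types. Over all genes 8.22% were higher and 12% lower, and counts among 5 or 12 markers are too small to read against those shares. Summed over 12 neuroectoderm markers, gene-linked accessibility was 1410, 1390 and 1410 CPM at day 5 and 1280, 1280 and 1290 at day 4, with 3 markers higher and 1 lower. The 5 pluripotent markers summed to 162, 160 and 163 CPM at day 5 and 187, 185 and 195 at day 4, with 3 lower. The 5 neural crest markers summed to 455 to 470 CPM at day 5 and 498 to 504 at day 4, with 2 lower. Mesoderm markers summed to 218 to 225 CPM at day 5 and 226 to 231 at day 4, with none called. Non-neural ectoderm (1 lower), endoderm (2 lower) and endothelial and blood markers (1 higher, 2 lower) stood within 162 to 231 CPM at day 5 and 190 to 249 at day 4. All markers had regions, and accessibility near a gene does not need its expression. The part of other cell types in the gene changes was not tested.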

How the data were processed

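The deposited counts are whole-number reads per region, 162317 regions of 201 bp, given by the authors for the SMADi libraries in 1 table. MACS2 and GRCh38 are named in the submitters' processing notes; no source used here gives the aligner, duplicate removal or read shift. Libraries were amplified by PCR without molecular identifiers, so reads are not independent molecules.

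Here, edgeR 4.0.16 (R 4.3.3, limma 3.58.1) fitted all 15 SMADi libraries with 9 group means (genotype by day): TMM scaling, filterByExpr (162313 regions kept) and robust quasi-likelihood F tests, with Benjamini-Hochberg adjustment over all regions and a threshold of 0.05. The contrast is the mean of the KO and DATG changes. SE was taken as |log2 change| over sqrt(F). CPM are counts per 1e+06 TMM-scaled counts. Gene-linked values sum regions whose nearest RefSeq gene end lies within 50 kb, with their own TMM scaling, and lie 0.107 log2 below the region scale for this contrast. DESeq2 1.42.0 was an alternative, with other scalings, filters, distances, thinning, a replicate block and each library left out. Scripts were tested on simulated data.

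Members and lists were chosen with earlier results of these data known. Named regions and genes are the 12 in each direction with the smallest p that moved the same way in KO and DATG (regions at or above median level, genes with 3 or more regions), up to 4 called members per list and a fixed set of markers, and the 6 regions in each direction for the difference from WT; promoters printed, line-check regions, further called list members and the RBPJ core motif were chosen after values were seen. A planned motif search over regions was replaced by RefSeq promoter windows, since no genome was used. Promoter sequences are credited to RefSeq, GRCh38.p14. Depth ranged from 7086918 to 23252871 counts per library. Some results covered by the naming rule are not reported here.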

Additional observations from a re-analysis of the deposited data

Results flagged for a closer look

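The mutant and WT changes between day 4 and day 5 differed in the interaction test (mutant change minus WT change, edgeR, adjusted p under 0.05) for the regions and genes named here; no cause was tested. All values are log2 differences of changes. The gene-linked differences were not followed in the alternatives run.

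At single regions the mutant change was above that of WT near FIZ1 (1.91), FABP6 (2.23), PTGFRN (1.63), SCARF1 (2.87), ALPG (1.82) and JARID2 (2.62). At FABP6 the mutant change was 0.45, which did not pass, and WT fell by 1.79. It was below that of WT near WDR43 (-2.37), LIPC (-2.68), ZBTB16 (-1.81), DLK1 (-2.40), SART3 (-2.35) and FBN2 (-2.87). At WDR43, LIPC and SART3 both genotypes rose, WT by 2.88, 3.30 and 2.90, and at DLK1 the mutant region fell by 1.58 while WT rose by 0.82.

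Gene-linked accessibility changed more upward in the mutant lines than in WT at ESM1 (1.86), GNB3 (1.11), OTX2 (0.85), CFD (0.77), LRCH4 (0.75), CNTN4 (0.63), HES4 (0.55), SPRY1 (0.52), ZFP36 (0.49), OTX1 (0.40), ZC3H12C (0.37), BBC3 (0.34), SOX1 (0.32) and DLL1 (0.32). SPRY1, an ERK inhibitor, changed by 0.17 in the mutant lines and -0.35 in WT, each past the threshold.

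It changed more downward at DEFB114 (-0.97), PROZ (-0.96), DLK1 (-0.84), MUC4 (-0.79), ETS1 (-0.67), AFP (-0.63), CACNA1E (-0.63), DGKI (-0.62), ENPEP (-0.61), SCN2A (-0.59), FLI1 (-0.50), HESX1 (-0.48), SOX10 (-0.37), PAX2 (-0.34) and SIX3 (-0.30). Of these, AFP and DLK1 also passed the threshold in WT, AFP downward and DLK1 upward.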

How the results depend on the processing

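The 24288 regions called in the mutant lines were 39145 with the 6 mutant libraries pooled, 11568 with DESeq2, 12296 with libraries thinned to equal depth and 5946 to 32884 with 1 library left out (lowest without DATG day 5 a, which is KO alone; 6738 without KO day 4 b, which is DATG alone; 14894 without DATG day 4 a). The 6359 genes were 10551 pooled, 3962 with DESeq2, 3786 thinned, 4147 and 1214 with gene ends within 10 kb and 1 kb, and 1546 to 8435 with 1 library left out (lowest without KO day 4 b; 2030 without DATG day 5 a, 4000 without DATG day 4 a). KO alone had 1464 with DESeq2, 2163 thinned and 2548 to 11646 with 1 left out; DATG had 1428, 1948 and 1954 to 11603, and WT 4700 with DESeq2 and 3914 to 19008. The mutant minus WT count was 1008 with DESeq2, 2038 thinned and 657 to 12543. KO minus DATG stayed at 0 in every setting run. Over 15 pairs of groups with 2 libraries, deviations of same-lettered libraries had r from -0.19 to 0.17, 1 over 0.1. KO day 4 and DATG day 5, with 1 library each, could not enter. Pairing of day 4 with day 5 within a mutant line was therefore not tested. With the replicate block 17931 mutant regions, 3902 in KO and 2468 for mutant minus WT were called.

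Of 153 named results, 141 were called and 58 of these kept their call throughout. Of 3395 checks 2957 kept direction and side of the threshold. Other called list members given above, and the gene-linked differences from WT, are outside these 153 and were not followed singly. With gene ends within 1 kb 7 reversed, to -0.0451 for ZC3H12C, 0.33 for DLK1, 0.0363 for ETS1, 0.0629 for NKD1, -0.12 for SPRY1, 0.0151 for DHRS3 and -0.012 for EPHA4, where fewer regions enter each sum. Causes of the other moves were not tested. KO day 4 and DATG day 5 are 1 library each.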
